A study of Mus musculus with 13 samples.

Results

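Thermogenic and beige adipocyte genes were followed in bulk RNA-Seq of mouse parametrial white adipose tissue (pmWAT), the visceral fat pad beside the uterus. The 9 genes were given by name: *Ucp1*, *Cidea*, *Elovl3*, *Dio2*, *Prdm16*, *Ppargc1a*, *Ppargc1b*, *Esrra* and *Esrrg*. All 9 were found among the 33618 genes in the count table, and 8 of them were among the 16753 genes that passed the filter on low counts, the exception being *Esrrg*. In the *Lmna* iADKO mice, *Ucp1* was 7.56-fold lower than in the controls, *Dio2* was 1.88-fold lower and *Esrra* was 1.17-fold lower, all at an adjusted p under 0.05. These were 3 of the 8 members tested, with 0 called higher, where 16.2% of all genes tested were called lower and 14.5% higher.

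Brown adipocytes burn fuel to make heat, and beige adipocytes are cells inside white fat that take on the same programme, most readily in cold or under adrenergic stimulation. Heat is produced when UCP1, a protein of the inner mitochondrial membrane, lets protons return to the matrix without making ATP. Norepinephrine acts through beta-adrenergic receptors, cyclic AMP and protein kinase A to raise *Ucp1*, *Dio2* and *Ppargc1a*, while PRDM16 holds the brown or beige identity and the PGC-1 coactivators work with the estrogen-related receptors to build mitochondria. Visceral white fat of mice kept at ordinary room temperature contains few beige cells, so these transcripts are usually scarce there.

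The study compared 7 *Lmna* fl/fl mice with 6 *Lmna* iADKO mice, one library per mouse. Mice of both groups carried *loxP* sites around exons 10 and 11 of *Lmna*, which encodes the nuclear lamins A and C, and all of them received tamoxifen at 50 mg/kg on 5 days at 12 to 14 weeks of age. The iADKO mice also carried 1 copy of *Adipoq*-CreERT2, a tamoxifen-dependent recombinase driven by the adiponectin promoter and so active in adipocytes, not in the other cells of the fat pad. The controls had no Cre, so the effect of Cre itself is not separated from the loss of *Lmna*. Fat was taken from these female mice 2 weeks after tamoxifen, and the whole pad was powdered, so adipocytes and all other cells were sequenced together.

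Each library held 18854223 to 19776491 counted reads, and levels are given as CPM, the reads of a gene relative to the TMM-scaled library total. Over the whole gene, *Lmna* had mean levels of 84.5 ± 7.27 CPM among controls (SD, n = 7) and 96.7 ± 11.5 CPM among iADKO mice (SD, n = 6). Its log2 fold change was 0.20 (standard error 0.078, edgeR adjusted p = 0.0721), and because the floxed exons were not counted apart, this does not check the genotype labels. All 8 adipocyte markers were lower in iADKO, by 0.60 to 1.19 on the log2 scale in size, and their summed level ranged from 22500 to 34300 CPM in fl/fl and from 13900 to 23100 CPM in iADKO. Of 9 macrophage markers, 7 were higher in iADKO. Without animals 706, 707, 974 and 975, described with *Ucp1*, these counts were 4 and 1. Of endothelial markers 3 of 6 were lower and of epithelial markers 2 of 5 tested were higher, while mesothelial, progenitor and neural markers had 0 calls by edgeR, with 2, 1 and 1 higher at an unadjusted p under 0.05 and 1, 0 and 0 by DESeq2. Skeletal muscle markers, at 22.3 to 464 CPM in fl/fl and 15.0 to 257 CPM in iADKO, passed the test in 0 of 11 genes (0 also at an unadjusted p under 0.05 and by DESeq2). Their log2 fold changes were all below 0, from -1.21 to -0.25 with a median of -0.74, so equal muscle content is not shown. Of these 11 genes, 8 were lower with animal 765 joined to 747 to 750 as a block. Without animals 706, 707, 974 and 975 it was 5, and without 974 and 975 it was 3. Muscle markers were highest in fl/fl replicates 1 and 5 and iADKO replicates 3 and 5. In bulk tissue, fewer cells of a type and less RNA per cell cannot be told apart.

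Start regions were read for the 9 members from the GRCm39 genome, from 250 bases before to 50 bases after the first base of each canonical GENCODE transcript. Each was searched on both strands for the full cyclic AMP response element TGACGTCA, since the programme is switched on through cyclic AMP, and for TNAAGGTCA, the extended response element of the estrogen-related receptors. A cyclic AMP response element was found in *Dio2* and *Ppargc1a*, starting 88 and 83 bases before the transcript start, and in none of the other 7 windows. Of all 21770 such windows in the genome, 2.44% held this element and 1.24% held the receptor element, which was in none of the 9. Both windows with a match are shown 5′ to 3′ on the minus strand, on which both genes lie, with the element in capitals.
Dio2 (GRCm39 chr12:90705770-90706069, minus strand): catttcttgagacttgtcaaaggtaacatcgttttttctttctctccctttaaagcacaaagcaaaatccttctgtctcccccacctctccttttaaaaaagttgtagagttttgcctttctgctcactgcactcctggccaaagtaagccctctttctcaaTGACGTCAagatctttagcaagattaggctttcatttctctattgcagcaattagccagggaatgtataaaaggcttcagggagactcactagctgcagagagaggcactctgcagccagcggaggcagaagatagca
Ppargc1a (GRCm39 chr5:51711215-51711514, minus strand): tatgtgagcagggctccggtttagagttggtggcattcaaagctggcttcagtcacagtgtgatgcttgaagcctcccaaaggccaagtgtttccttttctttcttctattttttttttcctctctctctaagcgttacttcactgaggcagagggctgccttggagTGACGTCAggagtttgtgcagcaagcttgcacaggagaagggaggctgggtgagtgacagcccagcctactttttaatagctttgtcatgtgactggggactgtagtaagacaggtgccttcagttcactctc
A match is a run of letters and was not tested as a binding site. *Dio2*, with a match, was lower in iADKO, *Ppargc1a*, with a match, did not pass the threshold, and *Ucp1*, with none in this window, was lower. The distal enhancers of these genes were not searched.

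*Ucp1* (chromosome 8 of GRCm39, 84016647 to 84025085, plus strand) had the largest log2 fold change of the 8 genes tested. Its levels in fl/fl replicates 1 to 7 were 9.06, 17.8, 3.75, 11.3, 4.36, 40.8 and 23.5 CPM. Those in iADKO replicates 1 to 6 were 0.825, 1.31, 0.91, 0.673, 6.91 and 1.87 CPM. Only iADKO replicate 5 reached into the control range, above fl/fl replicates 3 and 5, and the other 5 iADKO mice lay below every control. These levels rest on 65 to 739 reads per mouse in fl/fl and 14 to 145 in iADKO. The controls averaged 15.8 ± 13.1 CPM (SD, n = 7) and the iADKO mice 2.08 ± 2.4 CPM (SD, n = 6). The log2 fold change was -2.92 (standard error 0.72, edgeR adjusted p = 0.00972). The spread was wide inside each genotype, the highest mouse exceeding the lowest 10.9-fold among controls and 10.3-fold among iADKO mice.

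The animal numbers in the library names fall into runs. Those of fl/fl replicates 6 and 7 (707 and 706) and of iADKO replicates 3 and 5 (974 and 975) belong to runs that hold 1 genotype each. So does that of iADKO replicate 1 (765), which is alone in its run. Without 706 and 707, which had the highest *Ucp1*, the log2 fold change was -2.15 (adjusted p = 0.0352), and without 706, 707, 974 and 975 it was -2.98 (adjusted p = 0.0244), both fits chosen after seeing the data. Within the runs that hold both genotypes, the log2 CPM difference was -2.60 for 1 iADKO mouse against 3 fl/fl and -2.53 for 2 against 2. With the runs as a block the log2 fold change was -2.76 but the adjusted p was 0.0956, and under this block only 53 of all genes were called. What the animal numbers stand for, and whether mice of different runs were handled apart, is not given in the sources used here.

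**Figure D1:**
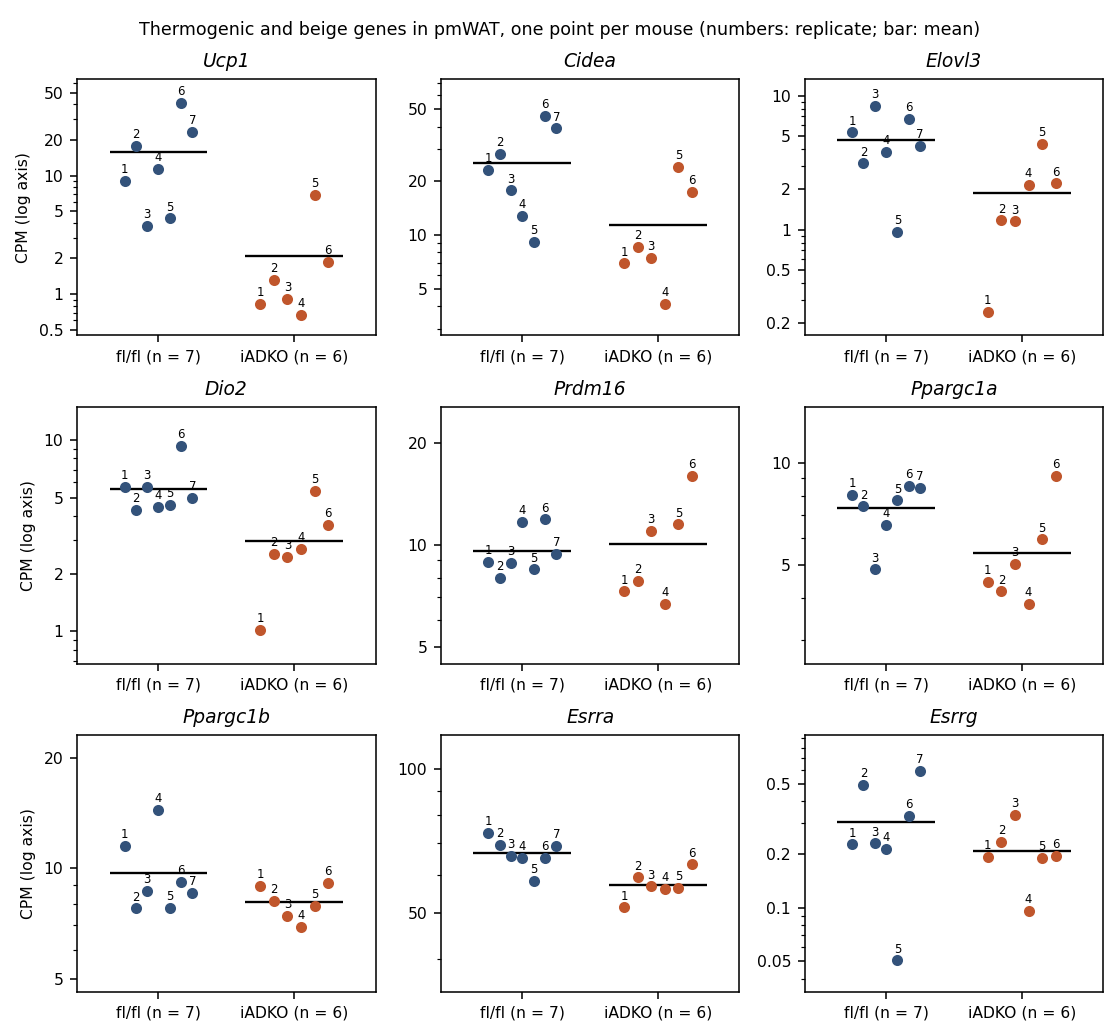
CPM of the 9 genes (log axis, its range differing between panels) in each of the 7 control and 6 iADKO mice, with the replicate number beside each point and a bar at the group mean. For *Ucp1*, the iADKO mice other than replicate 5 (6.91 CPM) lie below every control, while for *Prdm16* the groups interleave, from 7.98 to 11.9 CPM in fl/fl and from 6.68 to 16 CPM in iADKO.

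*Cidea* (chromosome 18, 67476317 to 67501224, plus strand) encodes a lipid droplet protein that is abundant in brown fat. It was at 22.9, 28.2, 17.7, 12.8, 9.17, 46.2 and 39.2 CPM in fl/fl replicates 1 to 7. In the iADKO mice, replicates 1 to 6, the levels were 6.94, 8.59, 7.43, 4.13, 23.9 and 17.4 CPM. The first 4 iADKO mice lay below every control, and replicates 5 and 6 lay inside the control range. Controls averaged 25.2 ± 13.6 CPM (SD, n = 7), iADKO mice 11.4 ± 7.59 CPM (SD, n = 6), with a log2 fold change of -1.14 that did not pass the threshold (standard error 0.46, edgeR adjusted p = 0.08). Leaving out iADKO replicate 5 gave -1.5 (adjusted p = 0.0329) and leaving out fl/fl replicate 5 gave -1.29 (adjusted p = 0.043). Without animals 706 and 707, the highest controls for *Cidea*, it was -0.67 (adjusted p = 0.294), and with the number runs as a block -0.58 (adjusted p = 0.559).

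*Elovl3* (chromosome 19, 46119917 to 46124133, plus strand) encodes an elongase of very long chain fatty acids that cold raises in brown fat. Its level was 5.30, 3.12, 8.32, 3.82, 0.962, 6.68 and 4.22 CPM in fl/fl replicates 1 to 7 and 0.243, 1.17, 1.15, 2.16, 4.38 and 2.21 CPM in iADKO replicates 1 to 6. Fl/fl replicate 5 was the low mouse of the controls (19 reads) and iADKO replicate 5 the high mouse of its group (92 reads), and apart from these the groups did not overlap. iADKO replicate 1 held 5 reads, the lowest of all. The log2 fold change was -1.29 (standard error 0.53, edgeR adjusted p = 0.079), the controls averaging 4.63 ± 2.41 CPM (SD, n = 7) and the iADKO mice 1.89 ± 1.43 CPM (SD, n = 6). It passed the threshold without iADKO replicate 5 (-1.73, adjusted p = 0.0301) and without fl/fl replicate 5 (-1.47, adjusted p = 0.0258). With the number runs as a block it was -0.93 (adjusted p = 0.448), and inside the runs the log2 CPM difference was 0.16 for 2 iADKO mice against 2 fl/fl and -2.05 for 1 against 3.

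Type 2 deiodinase, the product of *Dio2* (chromosome 12, 90691322 to 90705819, minus strand), converts thyroxine to active triiodothyronine inside the cell. *Dio2* was at 5.70, 4.32, 5.66, 4.46, 4.56, 9.28 and 4.97 CPM in fl/fl replicates 1 to 7. The iADKO replicates 1 to 6 were at 1.02, 2.53, 2.44, 2.69, 5.43 and 3.59 CPM. Apart from replicate 5, all iADKO mice were below the lowest control, and among the controls replicate 6 stood above the rest. Control and iADKO averages of 5.56 ± 1.73 CPM (SD, n = 7) against 2.95 ± 1.47 CPM (SD, n = 6) gave a log2 fold change of -0.91 (standard error 0.30, edgeR adjusted p = 0.0321). This call was close to the threshold: it was lost in 6 of 13 fits that left out 1 mouse, namely fl/fl replicate 1, 3 or 6 or iADKO replicate 2, 3 or 4, with an adjusted p of at most 0.0677. Without 706 and 707 it had an adjusted p of 0.095, and without 706, 707, 974 and 975, 0.0618.

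**Figure D2:**
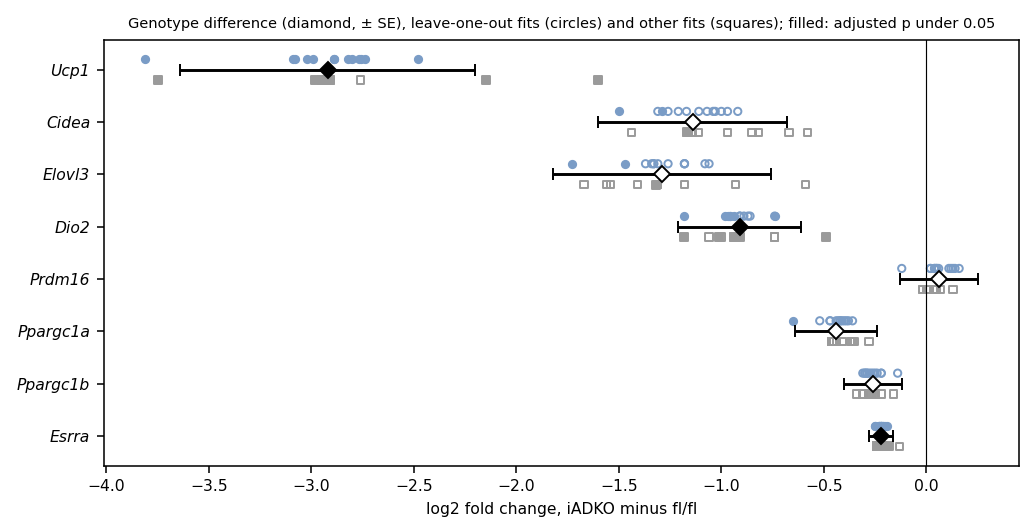
The log2 fold change (iADKO minus fl/fl) of the 8 genes tested, with its standard error (diamonds), beside the fits that left out 1 mouse (circles) and the other alternative fits (squares), filled where the adjusted p was under 0.05. *Ucp1* stays far to the left of 0 in all of them (-3.81 to -1.60), whereas *Prdm16* lies on both sides of 0 (-0.12 to 0.16).

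*Prdm16* (chromosome 4, 154400581 to 154721625, minus strand), which encodes the zinc finger coregulator of brown and beige identity, was not called in either direction. It was at 8.89, 7.98, 8.84, 11.7, 8.46, 11.9 and 9.40 CPM in fl/fl replicates 1 to 7, and at 7.28, 7.84, 11, 6.68, 11.5 and 16 CPM in iADKO replicates 1 to 6. Of the iADKO mice, 3 were below every control and 1, replicate 6, was above every control. The log2 fold change was 0.06 (standard error 0.19, edgeR adjusted p = 0.817), and without iADKO replicate 6 it was -0.12 (adjusted p = 0.58). In iADKO replicate 6, which was also the highest of its group in adipocyte markers (23100 CPM), epithelial markers summed to 270 CPM, against 11.3 to 77.0 CPM in the other 12 mice. Their part in the *Prdm16* value was not tested.

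*Ppargc1a* (chromosome 5, 51611592 to 51725068, minus strand) and *Ppargc1b* (chromosome 18, 61431195 to 61533735, minus strand) encode the coactivators PGC-1 alpha and PGC-1 beta, which drive mitochondrial gene expression. *Ppargc1a* was at 8.04, 7.44, 4.85, 6.56, 7.75, 8.56 and 8.44 CPM in fl/fl replicates 1 to 7 and at 4.46, 4.18, 5.03, 3.84, 5.95 and 9.14 CPM in iADKO replicates 1 to 6. The first 5 iADKO mice were below the control median of 7.75 CPM, and replicate 6 was above every control. Its log2 fold change was -0.44 (standard error 0.20, edgeR adjusted p = 0.0986), and without iADKO replicate 6 it was -0.65 (adjusted p = 0.00532). *Ppargc1b* ranged from 7.77 to 14.4 CPM (median 8.66) in fl/fl and from 6.92 to 9.14 CPM (median 8.03) in iADKO. The groups overlapped through most of their range, the upper controls being replicates 4 and 1, and the log2 fold change was -0.26 (standard error 0.14, edgeR adjusted p = 0.179).

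The estrogen-related receptors are orphan nuclear receptors that bind the promoters of mitochondrial genes together with PGC-1. *Esrra* (chromosome 19, 6888338 to 6899336, minus strand) was at 73.6, 69.4, 65.8, 65.1, 58.4, 65.2 and 69.1 CPM in fl/fl replicates 1 to 7. Levels of 51.3, 59.3, 56.8, 56.1, 56.4 and 63.1 CPM were measured in iADKO replicates 1 to 6. All 6 iADKO mice were below the control median of 65.8 CPM, and 4 were below the lowest control. Its mice varied little, with a coefficient of variation of 7.12% in fl/fl and 6.78% in iADKO against 82.9% and 115% for *Ucp1*, so a small difference passed the test: the log2 fold change was -0.22 (standard error 0.058, edgeR adjusted p = 0.0116). The raw reads of *Esrra* overlapped, at 1140 to 1294 per mouse in fl/fl and 1058 to 1283 in iADKO. TMM factors ran from 0.8982 to 1.015 in fl/fl and from 1.042 to 1.102 in iADKO, so this small difference rests on the scaling. With DESeq2 size factors in edgeR the log2 fold change was -0.24 (adjusted p = 0.00924). Without 974 and 975 the adjusted p was 0.0601, and with the number runs as a block the log2 fold change was -0.13 (adjusted p = 0.326).

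*Esrrg* (chromosome 1, 187340988 to 187947082, plus strand) had few reads. Its 65 reads over all 13 libraries were 4, 9, 4, 4, 1, 6 and 11 in fl/fl replicates 1 to 7 and 4, 5, 7, 2, 4 and 4 in iADKO replicates 1 to 6. The genotypes overlapped, averaging 0.305 ± 0.182 CPM (SD, n = 7) in controls against 0.208 ± 0.0776 CPM (SD, n = 6), and a difference of -0.0973 CPM was not detectable at this depth (exact permutation test, two-sided p = 0.267).

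The median log2 fold change of the 8 members tested was -0.68, beside 0.036 for all genes tested. In 0 of the 9 genes did all iADKO values lie below all control values, which held for 3.84% of genes tested. At an unadjusted p under 0.05, *Cidea* (0.0295), *Elovl3* (0.029) and *Ppargc1a* (0.0397) were also lower, and 0 were higher. The share of all genes with an unadjusted p under 0.05 is not given here. DESeq2's Wald test called 5 members lower, adding *Cidea* (adjusted p = 0.045) and *Elovl3* (adjusted p = 0.0281), and 0 higher. It called 5679 of all genes in either direction, against 5154 by edgeR. On simulated counts it made a larger share of false calls than edgeR. Those counts were drawn with edgeR's own estimates of spread and with few changed genes, so that share need not hold for these data.

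The order of the levels was compared per kilobase of exon. In fl/fl mice *Esrra* came first at 13.4 ± 0.952 CPM per kb (SD, n = 7), followed by *Cidea* at 11.2 ± 6.1, *Ucp1* at 8.14 ± 6.75, *Elovl3* at 2.04 ± 1.06, *Ppargc1b* at 1.67 ± 0.417, *Ppargc1a* at 1.04 ± 0.184, *Prdm16* at 0.999 ± 0.164, *Dio2* at 0.866 ± 0.269 and *Esrrg* at 0.0491 ± 0.0294. Neighbours in this order often changed places from mouse to mouse: *Esrra* was above *Cidea* in 5 of 7 controls, *Cidea* above *Ucp1* in 5 of 7 and *Ppargc1a* above *Prdm16* in 4 of 7. In iADKO mice *Esrra* was at 11.5 ± 0.777 CPM per kb (SD, n = 6) and *Cidea* at 5.09 ± 3.39, with *Esrra* above *Cidea* in 6 of 6 mice. *Ucp1*, at 1.07 ± 1.24 CPM per kb, now came after *Ppargc1b* at 1.4 ± 0.15, and it was below *Prdm16* (1.04 ± 0.366) in all but 1 of these mice.

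Since the adipocyte markers were lower in iADKO by a mean of 0.91 on the log2 scale, each member was also set against them mouse by mouse, as log2 CPM minus the mean log2 CPM of the 8 markers. *Ucp1* was lower by this measure too, averaging -7.71 ± 1.2 among controls (SD, n = 7) and -9.71 ± 1.3 among iADKO mice (SD, n = 6), a difference of -2.01 (exact permutation test, two-sided p = 0.0186). *Cidea*, *Elovl3* and *Dio2* had differences of -0.28, -0.49 and -0.09, with p-values of 0.555, 0.442 and 0.844 by the same exact permutation test. *Prdm16* was higher relative to the markers by 0.92 and *Esrra* by 0.69 (exact permutation p = 0.000583 for each, the smallest these groups allow), and *Ppargc1b* by 0.68 (exact permutation p = 0.00291). For *Ppargc1a* and *Esrrg* the differences of 0.43 and 0.62 had exact permutation p-values of 0.0606 and 0.0676. *Esrrg* held 1 to 11 reads per mouse in fl/fl and 2 to 7 in iADKO, so its log2 values depend on the prior count. With a prior count of 0.5 in place of 2 its difference was 0.58 (exact permutation p = 0.188). The p-values of the 9 members are not adjusted. A gene whose CPM is the same in both genotypes is higher by this measure, because the markers are lower.

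**Figure D3:**
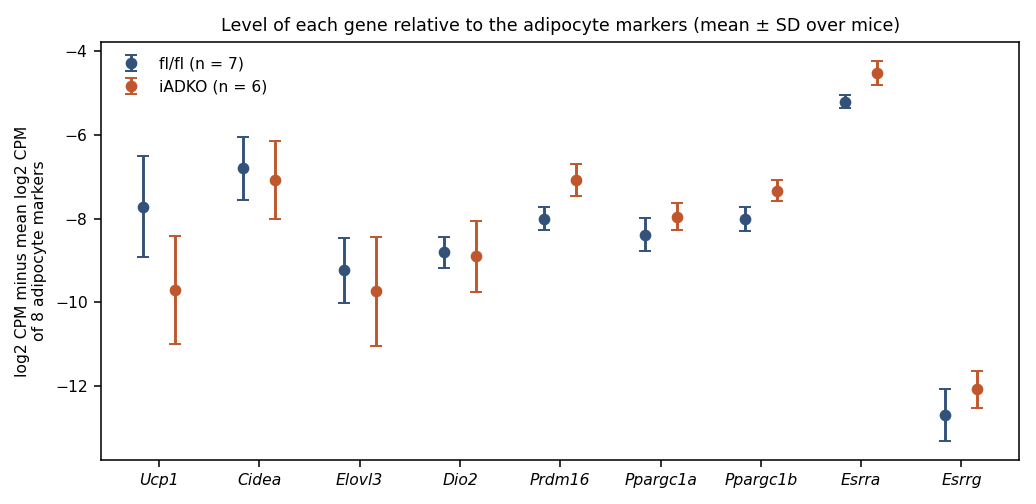
Mean and SD over 7 fl/fl and 6 iADKO mice of each gene's log2 CPM minus the mean log2 CPM of 8 adipocyte markers. *Ucp1* is lower in iADKO (-9.71 against -7.71), *Dio2* is about level (-8.90 against -8.81), and *Prdm16*, *Ppargc1b* and *Esrra* are higher.

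Members also varied between mice of the same genotype. After each genotype's mean log2 CPM was subtracted, the 28 pairs of the 8 tested members were compared over 13 mice, and 27 of the 28 correlations were positive. The share of positive correlations among pairs of other genes was not computed, so this count is a description. *Ucp1* and *Cidea* varied together (Pearson r = 0.87, permutation p = 0.00024, adjusted p = 0.00672; Spearman rho = 0.83, permutation p = 0.00143, adjusted p = 0.02), and r was 0.77 without the mice farthest from the median, fl/fl 6 and iADKO 5. *Elovl3* and *Dio2* also varied together (Pearson r = 0.83, permutation p = 0.00278, adjusted p = 0.0389; Spearman rho = 0.88, permutation p = 0.00014, adjusted p = 0.00392), with r = 0.82 without fl/fl replicate 5 and iADKO replicate 1. Across these pairs, *Ucp1* and *Dio2* had r = 0.60 (permutation p = 0.0422, adjusted p = 0.178) and rho = 0.32 (permutation p = 0.30, adjusted p = 0.524). This r fell to 0.12 without fl/fl replicate 6 and iADKO replicate 5. *Cidea* had r = 0.61 with *Dio2* (rho = 0.61) and 0.55 with *Elovl3* (rho = 0.57), and *Ucp1* had 0.47 with *Elovl3* (rho = 0.32). Without the same mice these r were 0.28, 0.36 and 0.17. All pairs but *Ucp1* with *Cidea* and *Elovl3* with *Dio2*, 26 in number, had an adjusted p above 0.05 for r. The correlations were not tested against each other. Within the number runs these relations were not computed, since none holds 6 mice.

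**Figure D4:**
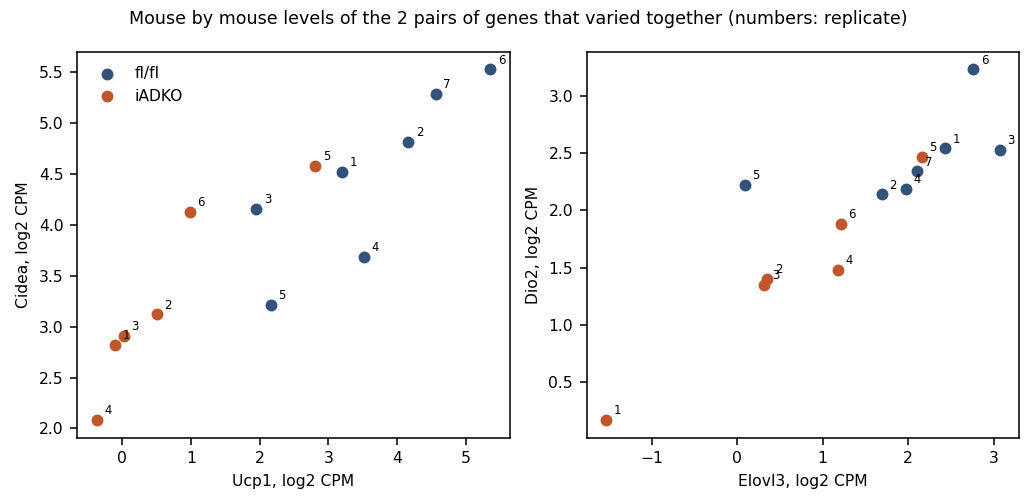
Log2 CPM of *Cidea* against *Ucp1* (left) and of *Dio2* against *Elovl3* (right), one point per mouse, with replicate numbers. The points include the genotype difference, which was subtracted before the correlations of 0.87 and 0.83 were computed, and in both plots iADKO replicate 5 lies among the controls.

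iADKO replicate 5 was the highest iADKO mouse for *Ucp1*, *Cidea*, *Elovl3* and *Dio2*. Its adipocyte markers summed to 14400 CPM and its macrophage markers to 2550 CPM, both inside the range of its group, and its muscle markers to 257 CPM, the highest of its group. Fl/fl replicate 5, the lowest control for *Cidea*, *Elovl3*, *Esrra* and *Esrrg*, had the lowest adipocyte marker sum of the controls (22500 CPM) and their highest macrophage (2550 CPM) and muscle (464 CPM) sums. Their part in the results was not tested.

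For each tested member, the genes whose mouse-to-mouse pattern was most like it were named by Pearson r over the 13 mice, with genotype means subtracted, among 10685 genes of average log2 CPM of at least 3. *Fra10ac1* came first for both *Ucp1* (r = 0.846) and *Cidea* (r = 0.876), followed by *Elp2* and *Acot11* for *Ucp1* and by *Pank1* and *Dtd1* for *Cidea*. *Acot11* and *Pank1* are themselves used as brown fat genes. The closest gene to *Elovl3* was *Plin5* (r = 0.958), a lipid droplet protein of oxidative tissues, then *Eif2b2* and *Tmem14c*, and *Plin5* was also among the closest to *Dio2* (r = 0.833) after *C87436* and *Ighv1-84*. Nearest to *Prdm16* were *Surf1* (r = 0.941), *Polr3gl* and *Sytl2*, to *Ppargc1a* *Mlst8* (r = 0.921), *Bhlhb9* and *Rp9*, to *Ppargc1b* *Stx6* (r = 0.895), *Mtss2* and *Kdr*, and to *Esrra* *Abhd11* (r = 0.94), *Itpa* and *Adrm1*. These are the highest of many correlations over few mice that share their libraries, and they are given as a description.

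The rest of the programme was described with 9 lists of 121 further genes, of which 110 were tested. Of these, 46 were called, 38 lower and 8 higher (16.2% and 14.5% among all genes tested). With the number runs as a block 1 was called, and with 765 joined to 747 to 750 it was 27. The lists were chosen with earlier results of these data known, so their counts are a description. Among 18 other genes used as markers of brown and thermogenic adipocytes, 14 were tested and 7 were lower (16.2% among all genes tested). In this list 0 were higher by edgeR, at an unadjusted p under 0.05 or by DESeq2. Without animals 706, 707, 974 and 975, 2 were lower. The log2 fold changes of the 14 ran from -1.98 to 0.16, with a median of -0.45. All 8 adipocyte markers were also lower, with a median of -0.84, and their part in these values was not tested. The cytochrome c oxidase subunits *Cox8b* and *Cox7a1*, forms found in muscle and brown fat, had log2 fold changes of -0.93 (standard error 0.20, edgeR adjusted p = 0.00398) and -1.11 (0.34, 0.0246), the second losing its call without 706 and 707 (adjusted p = 0.111). *Slc27a2*, an acyl-CoA synthetase, was at -1.98, at the edge of the threshold (adjusted p = 0.0496), and was not called with either block by number runs. *Slc36a2*, an amino acid transporter on the surface of brown and beige adipocytes, was at -0.86 (adjusted p = 0.000245), and *Pank1*, a kinase of coenzyme A synthesis, at -0.78 (adjusted p = 0.00399). *Slc36a2* fell from 328 ± 38.6 to 181 ± 30.2 CPM with no overlap between mice. *Zic1* and *Lhx8*, transcription factors that mark classical brown fat, had 8 and 5 reads over all 13 libraries.

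Genes used as markers of beige adipocytes showed no common direction, with a median log2 fold change of 0.00. Of 7 tested, 1 was lower and 2 were higher (16.2% and 14.5% among all genes tested). *Slc27a1*, a fatty acid transporter, was lower at -0.92 (edgeR adjusted p = 0.00173), while the surface protein *Tmem26*, at 0.55 (adjusted p = 0.0262), and *Epsti1*, at 0.58 (adjusted p = 0.00307), were higher. *Epsti1* also responds to interferon. Of the UCP1-independent heat cycles, 12 of 13 genes were tested and 2 were higher by edgeR, where 14.5% of all genes tested were called higher. These were the creatine transporter *Slc6a8* (0.60, edgeR adjusted p = 0.00175) and glycerol kinase *Gk* (0.45, adjusted p = 0.0149). At an unadjusted p under 0.05, 5 were higher, and by DESeq2 3, with 0 lower by any of these. The median of this list was 0.33.

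**Figure D5:**
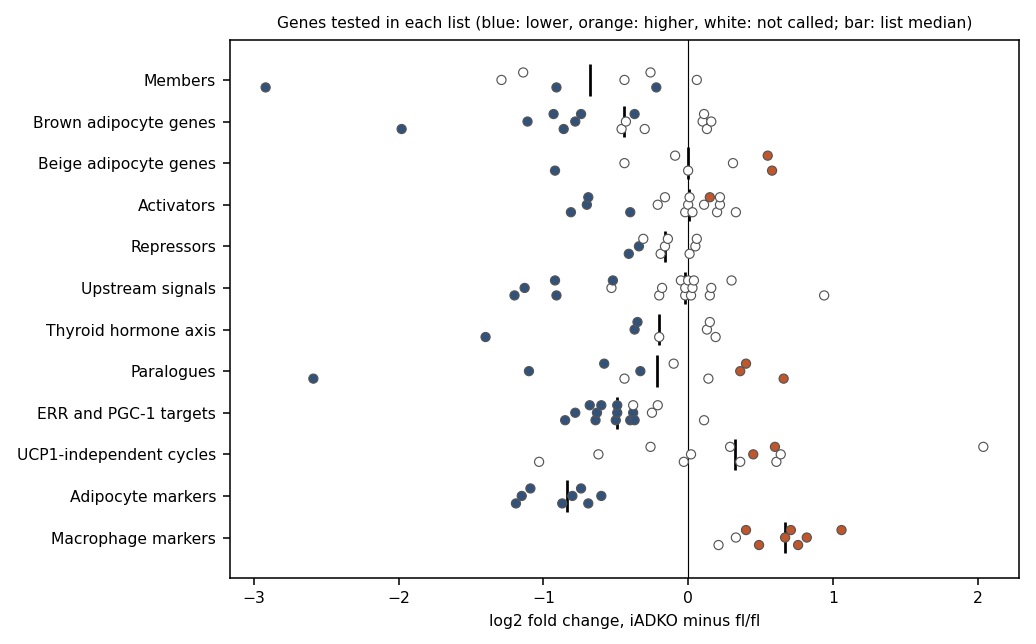
The log2 fold change (iADKO minus fl/fl) of every tested gene in the members, the 9 further lists and the adipocyte and macrophage markers, filled where the adjusted p was under 0.05, with a bar at each list's median. The medians run from -0.84 for adipocyte markers and -0.68 for the members to 0.67 for macrophage markers.

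Upstream of the members, *Adrb3*, the beta-adrenergic receptor of mature adipocytes, averaged 446 ± 109 CPM among controls (SD, n = 7) and 204 ± 89.9 CPM among iADKO mice (SD, n = 6). Its log2 fold change was -1.13 (standard error 0.25, edgeR adjusted p = 0.0047). The median of 19 tested genes for signals, receptors and messengers was -0.02. Of all genes tested, 16.2% were called lower and 14.5% higher. Among the 19, 5 were lower by edgeR and 0 higher (2 at an unadjusted p under 0.05, 0 by DESeq2). Besides *Adrb3* these were the protein kinase A subunits *Prkaca* (-0.52, adjusted p = 0.00285) and *Prkar2b* (-0.91, adjusted p = 0.000628), the cyclic AMP phosphodiesterase *Pde3b* (-0.92, adjusted p = 0.000525) and the natriuretic peptide clearance receptor *Npr3* (-1.20, adjusted p = 0.0281). *Pde3b* and *Npr3* oppose this signalling, and *Adrb3* and *Prkaca* carry it. All 8 adipocyte markers were lower too, with a median of -0.84, and their part in these values was not tested.

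Among 16 transcriptional activators of the programme, 4 were lower and 1 was higher by edgeR (16.2% and 14.5% among all genes tested). *Ppara* (-0.81, edgeR adjusted p = 0.0167), *Pparg* (-0.70, adjusted p = 0.0041), *Foxc2* (-0.69, adjusted p = 0.0115) and *Nfia* (-0.40, adjusted p = 0.000782) were lower. *Nrf1* was higher at the edge of the threshold (0.15, adjusted p = 0.0493), and DESeq2 called 0 activators higher. *Ebf2*, which marks committed brown and beige precursors, averaged 39.7 ± 4.18 CPM in controls (SD, n = 7) against 39.8 ± 6.53 CPM in iADKO mice (SD, n = 6), with an adjusted p of 0.991. Of 9 repressors, *Zfp423* (-0.41, adjusted p = 0.0258) and *Rb1* (-0.34, adjusted p = 0.00391) were lower by edgeR, but neither was called with either block by number runs or without animals 706, 707, 974 and 975. Activators and repressors had medians of 0.01 and -0.16.

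On the thyroid hormone axis, in which *Dio2* makes the active hormone, 3 of 7 tested genes were lower by edgeR (16.2% among all genes tested). At an unadjusted p under 0.05 it was 4 and by DESeq2 4, while 0 were higher by any of these. The receptor *Thrb* was lower (-0.37, edgeR adjusted p = 0.00323), as were its partner *Rxra* (-0.35, adjusted p = 0.00471) and the hormone-responsive lipogenic gene *Thrsp* (-1.40, adjusted p = 0.000708). The other receptor, *Thra*, had a log2 fold change of -0.20 that missed the threshold (adjusted p = 0.0762).

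Relatives of the members moved in both directions, with 4 lower and 3 higher of 10 tested (16.2% and 14.5% among all genes tested). *Ucp2*, the uncoupling protein relative expressed in immune cells among others, was higher at 0.66 (edgeR adjusted p = 0.00465), whereas *Ucp3* was lower at -0.58 (adjusted p = 0.00444). *Cidec*, the CIDE protein of white fat droplets, fell from 2320 ± 467 CPM in controls to 1080 ± 211 CPM, with a log2 fold change of -1.10 (adjusted p = 0.000389). The elongase *Elovl6* was lower at -2.59 (adjusted p = 0.000569), and *Pprc1*, the remaining coactivator of the PGC-1 family, was higher at 0.40 (adjusted p = 0.00717). *Esrrb* had 38 reads over all libraries and was not tested. Macrophage markers, which rose in 7 of 9 genes, moved with *Ucp2*, and their part in its value was not tested.

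Textbook targets of the estrogen-related receptors and PGC-1 were lower in 12 of 16 genes, with a median of -0.49, where 16.2% of all genes tested were lower. None was higher by edgeR, at an unadjusted p under 0.05 or by DESeq2, and without animals 706, 707, 974 and 975, 4 were lower. This list was chosen with earlier results of these data known, so its share beside that of all genes is a description, not a test. *Vegfa*, an angiogenic factor, was at -0.85 (edgeR adjusted p = 0.000684) with no overlap between genotypes. Mitochondrial genes among those called were *Idh3a* of the citric acid cycle (-0.68, adjusted p = 0.00328), *Mfn2* of mitochondrial fusion (-0.64, adjusted p = 0.000616) and *Acadm* of beta-oxidation (-0.63, adjusted p = 0.00173). All 8 adipocyte markers, with a median of -0.84, moved in the same direction, and their part in these values was not tested.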

How the data were processed

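The authors aligned paired, strand-specific mRNA reads to mm39 with STAR 2.7.11a after FastQC 0.12.1. The authors deposited raw counts per gene and, as log2 values, DESeq2's regularized log (rlog) of them. The counting tool, its annotation and the DESeq2 design are not given in the sources used here. Genotypes and replicate numbers came from the labels. All 13 libraries are used.

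Counts were filtered with filterByExpr, TMM-normalized and compared by the robust quasi-likelihood test of edgeR 4.0.16 in R 4.3.3, without covariates, with Benjamini-Hochberg adjustment over all 16753 genes tested and a threshold of 0.05. Each standard error is the log2 fold change divided by the root of its F statistic. Log2 CPM use a prior count of 2. Gene coordinates and exon lengths came from GENCODE vM39 on GRCm39, in which 33184 identifiers were found. Single values were compared by exact permutation over the 1716 splits into 7 and 6, and pairs of members by 100000 permutations within genotypes, adjusted over 28 pairs. The scripts were tested on simulated counts, on which DESeq2's Wald test made a larger share of false calls than edgeR. The simulation used edgeR's own estimates of spread and few changed genes, so it does not rank the 2 tests on these data. Errors are the spread between mice, which includes counting error. No pair of mice agreed within sampling noise (chi-square of at least 8.56 per degree of freedom).

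The members and lists were chosen with earlier results of these data known. Named are all members, up to 5 called genes of each list by size, 11 genes chosen by name and 3 genes most like each member. Of the called genes, 1 is not reported here. Alternatives were DESeq2 1.42.0 (size factors and Wald test), limma 3.58.1 on rlog, 2 other filters, TMM without mitochondrial genes, blocks by replicate number and by runs of animal numbers (split at gaps of 10), and each mouse left out. Fits without animals 706, 707, 974 and 975, and with animal 765 joined to 747 to 750, were added after seeing the data.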

Additional observations from a re-analysis of the deposited data

Results flagged for a closer look

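*Dio2* in fl/fl replicate 6 stood apart from the other controls, at 3.23 log2 CPM (9.28 CPM), with a gap to the next mouse that was 0.639 of the group's whole range. Such a gap was looked for in 18 groups of values, 9 genes in each genotype, and chance alone picks out about 1 in 20 groups. Without this mouse the log2 fold change of *Dio2* was -0.74 (edgeR adjusted p = 0.0671).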

How the results depend on the processing

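The 3 called members were compared under 21 planned and 4 added alternatives. *Ucp1* kept its call in 24 of 25, *Esrra* in 21 and *Dio2* in 14, and all 3 were lower in every one. With the animal-number runs as a block 53 genes, 0 members and 1 gene of the further lists were called (*Ucp1* adjusted p = 0.0956), and with 765 joined to 747 to 750 these numbers were 2011, 1 and 27. Without 706, 707, 974 and 975 they were 1321, 1 and 17, and without 974 and 975, 2773 genes were called. DESeq2's Wald test called 5 members and 5679 of all genes. With each mouse left out in turn, 2 to 5 members, 39 to 56 genes of the further lists and 3998 to 6604 of all genes were called. The cause of these moves was not tested. On the deposited rlog values, which DESeq2 shrinks, limma called the same number of members (3) with smaller sizes, -1.6 for *Ucp1* and -0.49 for *Dio2*.

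*Prdm16* changed sign with 765 joined (-0.02), without 974 and 975 (-0.02) and with a mouse left out ran from -0.12 (without iADKO replicate 6) to 0.16. *Ebf2*, near 0 in all fits, was -0.01 without 706 and 707, 0.00 below 0 without all 4, -0.02 with DESeq2, its size factors and rlog values, -0.01 with no filter and without mitochondrial genes, and from -0.07 to 0.06 with a mouse left out. Relative to the adipocyte markers, differences with a mouse left out ran from -0.34 to 0.19 for *Dio2*, from 0.31 to 0.53 for *Ppargc1a* (p under 0.05 in 3 of 13 by exact permutation) and from 0.48 to 0.75 for *Esrrg* (3 of 13). Per kilobase of the longest transcript, *Ppargc1b* was at 2.42 and 2.02 CPM in fl/fl and iADKO and *Esrra* at 25.8 and 22.2.

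The replicate numbers do not pair the mice in any stated way. Correlations of the deviations of same-numbered mice from their genotype means ran from -0.026 to 0.217 and were over 0.1 in 3 of 6 pairs, and 3 of 6 fl/fl mice correlated best with their own number. With the replicate block, which leaves out fl/fl replicate 7, 4833 of all genes, 3 members and 48 genes of the further lists were called, and *Ebf2* was -0.04. *Elovl3* has no value with at least 10 counts in every sample, since iADKO replicate 1 held 5. *Esrrg* is limited by depth.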
